A study of Mus musculus with 55 samples.

Results

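Cox7a2l was followed at the level of the gene and of its isoforms in the livers of Collaborative Cross (CC) mice. Cox7a2l (ENSMUSG00000024248) was found by its symbol, and it is 1 of 37620 genes measured, with 2 of 97251 measured isoforms. The data came from 55 untreated males of 29 CC lines, which are recombinant inbred lines that descend from WSB/EiJ, PWK/PhJ, CAST/EiJ, A/J, NOD/ShiLtJ, C57BL/6J, NZO/HlLtJ and 129S1/SvImJ. A line was represented by 1 mouse in 8 cases, by 2 mice in 16 cases and by 3 mice in 5 cases. Mice were between 8.0 and 11.9 weeks old and weighed between 12.8 and 38.0 g. Whole liver was sequenced as polyA-selected RNA, and between 20542671 and 33953036 fragments were assigned to genes in each mouse. The founder haplotypes of the lines at Cox7a2l were not analysed here, so that lines were compared by their names alone. Reads of all lines were assigned to transcripts of the C57BL/6J reference, and whether the values of Cox7a2l depend on the allele a line carries was not tested. Both mice of IL-1052 and 2 of 3 mice of IL-2750 were more alike a mouse of the other line than their line mates. The tests of Cox7a2l among lines and its intraclass correlations are therefore also given without these lines.

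Cox7a2l encodes a mitochondrial protein of the COX7A family, also known as SCAF1 or COX7RP. The family members Cox7a1 and Cox7a2 encode subunits of complex IV, the cytochrome c oxidase that ends the respiratory chain. The protein of Cox7a2l takes the place of such a subunit and joins complex IV to complex III in a respiratory supercomplex. C57BL/6J is known for a short form of the protein that lacks a pair of residues found in other strains.

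The gene lies at chr17:83901259-83913673 (NCBI build 37, mm9), on the minus strand. The isoform ENSMUST00000025095 has 3 exons, 1078 bases and 111 codons, and is called the skipping isoform. The isoform ENSMUST00000167741 has 4 exons, 1147 bases and 134 codons, and is called the inclusion isoform. They differ by a single exon of 69 bases at chr17:83903271-83903339, which lies in the coding part, adds 23 codons and holds no in-frame stop. The upstream intron has 100 bases, and the downstream intron has 1193 bases. The exon, with 10 intron bases on each side, and the junctions that tell the isoforms apart are shown 5′ to 3′ from the reference genome. The first sequence covers chr17:83903261-83903349, and its capitals mark the alternative exon. Capitals mark in the second the last exon (chr17:83902053-83903464, spliced), and in the third the alternative exon (chr17:83903315-83903464, spliced).
alternative exon: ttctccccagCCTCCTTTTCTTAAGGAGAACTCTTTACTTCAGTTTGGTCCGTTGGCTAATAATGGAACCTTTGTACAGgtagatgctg
skipping junction: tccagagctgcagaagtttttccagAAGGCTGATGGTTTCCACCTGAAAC
inclusion junction: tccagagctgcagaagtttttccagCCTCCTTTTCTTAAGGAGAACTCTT

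**Figure D1:**
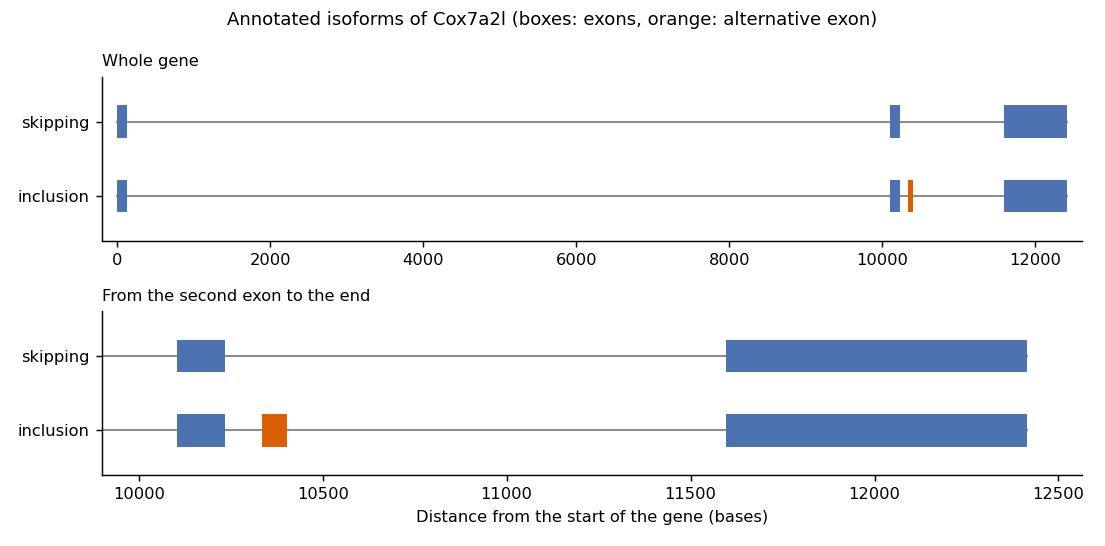
Exons (boxes) and introns (lines) of the annotated isoforms of Cox7a2l, to scale, against the distance in bases from the start of the gene. The lower panel enlarges the end of the gene, where the alternative exon of 69 bases (orange) sits 100 bases after the second exon.

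The values of Cox7a2l have to be read beside those of a near-identical copy. Gm6969 (ENSMUSG00000066553) is annotated as a pseudogene at chr12:25322866-25323897, minus strand, and matches the joined exons without introns. It matched 1071 of the 1078 bases of the skipping isoform with an identity of 98.0% and lacks the alternative exon. Along the alignment there were 11 substitutions, 1 insertion of 6 bases and 1 deletion of 5 bases. The insertion is in the coding part, 12 bases after the start of the last exon. Its 6 bases have the length of a pair of codons, and the Cox7a2l reference is that of C57BL/6J, the strain known for the short form. The sequence of a longer Cox7a2l allele was not compared, and whether its reads were assigned to Gm6969 was not tested. The windows around the insertion are shown because it is the longest difference between both genes, at chr17:83902044-83903449 (spliced) and chr12:25323635-25323684. Capitals mark the bases that differ.
Cox7a2l: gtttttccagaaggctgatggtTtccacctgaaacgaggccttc
Gm6969: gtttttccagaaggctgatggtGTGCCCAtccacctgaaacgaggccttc

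RSEM, which made the deposited values, divides fragments that match several transcripts by estimation. The estimated fragments of Cox7a2l were whole numbers (within 0.02) in 2 of 55 mice, while the sum of Cox7a2l and Gm6969 was whole in 55 of 55 mice. A second related copy, Gm10242, with an identity of 84.6%, was at 0 in all mice. Results for Cox7a2l are therefore given alone and with Gm6969 added, and the alternatives with Gm6969 were chosen after seeing the data.

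Total expression of Cox7a2l, in FPKM (fragments scaled by transcript length and by the depth of the mouse), had its lowest value of 24.9 in the single mouse of IL-2689. The median over mice was 67.5, and the highest value of 98.7 was found in replicate 1 of IL-2750. Between 537 and 3038 fragments per mouse stood behind these values. In the order of line means, IL-2689 was followed by IL-785 with 51.3 ± 4.09 FPKM (SD, n = 3), whose mice had 47.0, 51.8 and 55.2 FPKM. At the other end were IL-2146 with 86.6 ± 0.926 FPKM (SD, n = 2) and the single mouse of IL-2126 with 97.5 FPKM. The other 25 lines had means between 58.8 and 77.7 FPKM. The highest line mean was 3.91 times the lowest, and 1.90 times the lowest without IL-2689.

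From the lower end upwards, the first 9 of these lines in FPKM were IL-611 with 58.8 ± 1.76, IL-1052 with 59.97 ± 14.5, IL-1061 with 62.1 ± 0.636, IL-1141 with 62.5 (n = 1), IL-219 with 62.7 ± 1.13, IL-4457 with 63.2 ± 0.544, IL-2680 with 63.5 ± 0.226, IL-1452 with 63.5 (n = 1) and IL-670 with 65.9 ± 1.91, where ± is the SD over the mice of a line. These means lie below or near the median over mice. The next 8 were IL-3438 with 66.8 ± 0.771, IL-2750 with 68.4 ± 27.2, IL-2693 with 68.8 (n = 1), IL-2156 with 69.0 ± 2.74, IL-519 with 69.3 ± 2.58, IL-72 with 71.1 ± 1.41, IL-2011 with 72.4 ± 10.2 and IL-521 with 72.7 ± 4.85. The last 8 were IL-4032 with 72.9 (n = 1), IL-3912 with 73.4 ± 4.35, IL-3575 with 73.7 ± 5.11, IL-4141 with 73.9 (n = 1), IL-1513 with 75.2 ± 17.3, IL-557 with 76.5 (n = 1), IL-4052 with 76.8 ± 2.25 and IL-3348 with 77.7 ± 1.96. The middle of the order was thus filled by lines whose means lay close together, and the SD was above 10 FPKM in IL-1052, IL-2750, IL-2011 and IL-1513.

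The SD within lines, pooled over the lines with at least 2 mice, was 9.29 FPKM. A gap between neighbours in the order exceeded 2 standard errors, taken from the pooled SD, once in 28 gaps, between IL-2689 and IL-785, so that all other neighbours did not differ beyond their spread. Among the 21 lines with at least 2 mice, the mice of 121 of 210 line pairs (57.6%) did not overlap. Most of these lines have 2 mice, and so few mice can fail to overlap without a line effect. Counts of line pairs were not made over all genes or isoform ratios, so that none given here or below sets Cox7a2l apart. Lines differed in total expression by edgeR's quasi-likelihood F test (47 mice, adjusted p = 0.0155), as did 88.5% of the 15285 genes tested, so that passing this test does not set Cox7a2l apart.

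Much of the spread within lines came from IL-1052 and IL-2750. Replicates 1 and 2 of IL-1052 had 49.8 and 70.2 FPKM. Replicates 1, 2 and 3 of IL-2750 had 98.7, 60.3 and 46.2 FPKM. Over the 5949 genes with variable total expression, 42 of the 47 mice with a line mate were most alike a line mate (Spearman correlation), and 4 of the 5 others belonged to these lines. Replicate 1 of IL-1052 was most alike replicate 1 of IL-2750 (0.972, against 0.913 with its line mate), and the replicates 2 of both lines were most alike each other (0.955). The labels of these mice were kept as given. Without both lines, the pooled SD within lines was 4.91 FPKM, the edgeR adjusted p was 0.000122, and 117 of 171 line pairs (68.4%) did not overlap.

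**Figure D2:**
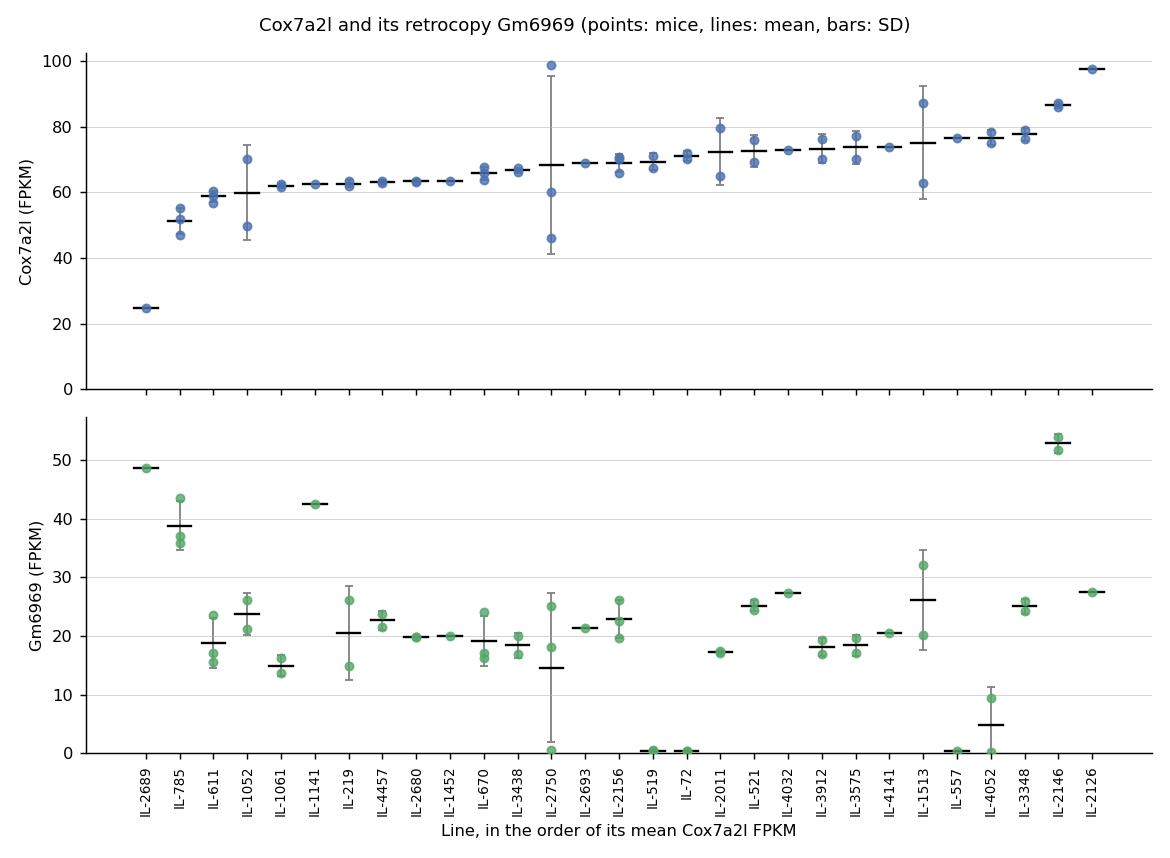
FPKM of Cox7a2l (upper panel) and Gm6969 (lower panel) in each line, in the order of the mean of Cox7a2l. Points are mice, horizontal lines are line means and bars are the SD where a line has at least 2 mice. IL-2689 stands lowest for Cox7a2l at 24.9 and near the top for Gm6969 at 48.8, and all mice of IL-519, IL-72 and IL-557 lie near 0 for Gm6969.

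The estimates for Gm6969 varied more widely over the lines than those for Cox7a2l. They rest on how RSEM divides the fragments of both genes, and whether they depend on the Cox7a2l allele of a line was not tested. Estimated fragments of Gm6969 were between 3.43 and 14.28 in 7 mice and at 236 or more in the other 48 mice. The 7 mice were both mice of IL-72, both mice of IL-519, the mouse of IL-557, replicate 1 of IL-4052 and replicate 1 of IL-2750. Replicate 2 of IL-4052 had 236 fragments, so that the mice of this line fell on both sides of the gap. In these 7 mice Cox7a2l was between 67.5 and 98.7 FPKM, at or above the median over mice. The highest estimates for Gm6969 were 54.1 and 51.8 FPKM in IL-2146, 48.8 FPKM in IL-2689 and 42.6 FPKM in IL-1141. Lines differed in the estimates for Gm6969 by the edgeR test (adjusted p = 5.98e-05), as did 88.5% of all genes tested.

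With Gm6969 added, the line that stood lowest for Cox7a2l was no longer set apart. IL-2689 had 24.9 FPKM of Cox7a2l and 48.8 FPKM of Gm6969, and its sum of 73.7 FPKM was the third lowest of 29 line means. IL-785 had a mean sum of 90.2 FPKM, at rank 17. The lowest sum was 69.7 FPKM in IL-519, and the highest was 139.5 FPKM in IL-2146, which is 2.00 times the lowest. No gap between neighbours exceeded 2 standard errors in the order of sums, and 107 of 210 line pairs (51.0%) did not overlap. Over all 406 pairs of lines, 104 were more than 2 standard errors apart in the sum, against 77 in Cox7a2l alone. Without IL-1052 and IL-2750 these counts were 136 for the sum and 144 for Cox7a2l, of 351 pairs. The sum of counts differed among lines by the edgeR test (adjusted p = 7.27e-06), as did 88.5% of all genes tested. Over the 29 line means the Pearson correlation of Cox7a2l with Gm6969 was -0.26, and 0.03 without IL-2689, where both values share the fragments that RSEM divides.

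**Figure D3:**
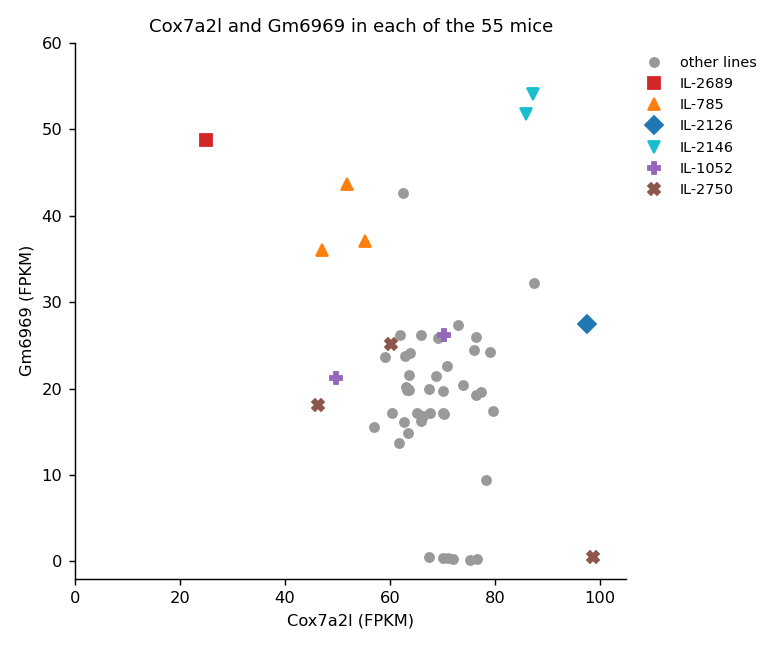
FPKM of Gm6969 against FPKM of Cox7a2l in each of the 55 mice, with 6 lines marked. The mouse of IL-2689 lies alone at 24.9 FPKM of Cox7a2l and 48.8 FPKM of Gm6969, and 7 mice lie near 0 on the axis of Gm6969.

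The skipping isoform made up most of Cox7a2l in every mouse. The inclusion isoform took between 2.04% and 11.7% of the gene's expression (isoform ratio, IsoPct), with a median of 5.52%. These shares rest on between 44.6 and 199 estimated fragments of the inclusion isoform per mouse. In IL-2126, the mouse with the lowest share, the inclusion isoform had 2.19% of the fragments, with a 95% Wilson interval of 1.64% to 2.92%. In the mouse of IL-2689 it had 11.9% of the fragments, with an interval of 9.43% to 14.9%. The intervals cover counting error only, and do not cover the sharing of fragments by RSEM.

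Line means of the inclusion share were highest in IL-2689 with 11.2% (n = 1), IL-785 with 10.4% ± 1.32 (SD, n = 3) and IL-219 with 9.39% ± 2.12 (SD, n = 2). The mice of IL-785 had 10.4%, 11.7% and 9.11%, and those of IL-219 had 7.89% and 10.9%, so that both lines overlap. The lowest means were in IL-2126 with 2.04% (n = 1), IL-2156 with 3.27% ± 0.53 (SD, n = 3) and IL-611 with 3.31% ± 1.11 (SD, n = 3). The mice of IL-2156 had 3.68%, 2.67% and 3.47%, all below every mouse of IL-785 and IL-219. Between these ends, the first 12 lines in percent were IL-2680 with 4.03 ± 1.35, IL-3912 with 4.05 ± 0.651, IL-521 with 4.21 ± 0.948, IL-670 with 4.34 ± 1.8, IL-2011 with 4.61 ± 1.29, IL-72 with 4.81 ± 0.354, IL-2146 with 4.82 ± 0.198, IL-1513 with 4.82 ± 1.16, IL-519 with 4.88 ± 0.615, IL-4032 with 5.01 (n = 1), IL-3348 with 5.43 ± 0.269 and IL-2750 with 5.79 ± 1.27. The other 11 were IL-3438 with 5.95 ± 0.141, IL-3575 with 6.16 ± 1.57, IL-4457 with 6.29 ± 0.537, IL-1052 with 6.53 ± 0.332, IL-2693 with 6.54 (n = 1), IL-1061 with 6.74 ± 0.636, IL-4052 with 6.93 ± 0.12, IL-557 with 7.44 (n = 1), IL-4141 with 8.01 (n = 1), IL-1141 with 8.25 (n = 1) and IL-1452 with 8.78 (n = 1). The pooled SD within lines was 1.09 percentage points. No gap between neighbours in the order exceeded 2 standard errors, and 124 of 210 line pairs (59.0%) did not overlap. Over all 406 pairs of lines, 165 were more than 2 standard errors apart. Neither count of pairs was made over all isoform ratios.

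Isoform ratios of Cox7a2l differed among lines by limma's F test on van der Waerden scores (adjusted p = 0.0042), as did 27.5% of the 21415 isoform ratios tested. By an F test without moderation, added after seeing the data, the adjusted p was 0.000767, and 20.0% of isoform ratios were called. Both isoforms have the same value, since their shares add to the whole. The isoforms themselves differed among lines in their estimated counts by the edgeR test, with adjusted p = 0.0158 for the skipping isoform and 0.0257 for the inclusion isoform, beside 38.1% of 35450 isoforms. Without a filter on low counts both lost the call, at adjusted p = 0.0512 and 0.0737. Without IL-1052 and IL-2750 the limma adjusted p of the isoform ratios was 0.00327, beside 26.3% of isoform ratios called. In this setting the edgeR adjusted p was 7.59e-05 for the skipping isoform and 0.00891 for the inclusion isoform, beside 39.3% of isoforms.

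The level of the inclusion isoform and of the skipping isoform did not follow the same order of lines. The inclusion isoform had line means between 1.93 FPKM in IL-611 and 5.92 FPKM in IL-4141. In IL-2689 it had 2.78 FPKM, within this range, whereas the skipping isoform had 22.1 FPKM, the lowest of all lines. Over the 29 line means the Spearman correlation between the isoforms was -0.05.

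As a percent of Cox7a2l and Gm6969 together, the inclusion isoform ranged over the lines from 1.59% in IL-2126 to 7.41% in IL-557. IL-2689 moved from rank 29 to rank 12 of the line means (3.77%), and IL-785 from rank 28 to rank 24 (5.91%). IL-2126, IL-2156 and IL-611 kept the lowest 3 ranks. The Spearman correlation of the line means of both measures was 0.84, and both share the inclusion isoform as numerator.

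**Figure D4:**
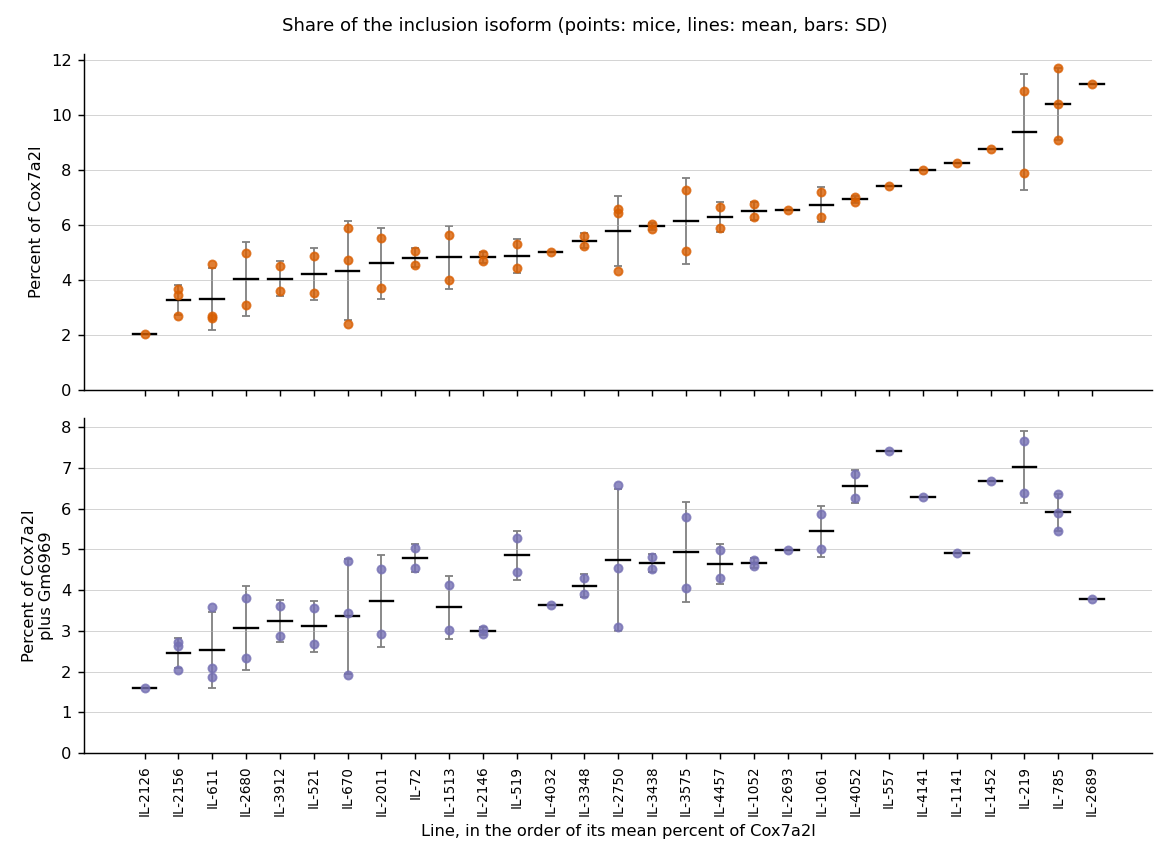
Share of the inclusion isoform in each line, as a percent of Cox7a2l (upper panel) and of Cox7a2l plus Gm6969 (lower panel), in the order of the upper panel. Points are mice, horizontal lines are line means and bars are the SD where a line has at least 2 mice. IL-2689 is highest in the upper panel at 11.2% and has 3.77% in the lower panel.

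The part of the variance that lay between lines was measured as the intraclass correlation of van der Waerden scores over all 55 mice. It was 0.38 for total expression (one-sided permutation test over line labels, p = 0.0237, adjusted p = 0.0237). Over all 5949 total expression traits the median was 0.59, and 10.3% of traits had a lower value than Cox7a2l. Without IL-1052 and IL-2750 the value was 0.74 (adjusted p = 3e-05), and without replicate 1 of IL-2750 alone it was 0.69. Without the mouse of IL-2689 alone it was 0.319, at a permutation adjusted p of 0.0502. When all lines with a single mouse were left out (47 mice and 21 lines remaining), IL-2689 among them, it was 0.336 (permutation adjusted p = 0.0356).

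For the isoform ratio the intraclass correlation was 0.73 (permutation test, adjusted p = 1.5e-05, from the smallest p that 100000 permutations can give, 1e-05). The median over 21415 isoform ratios was 0.22, and 98.1% of them had a lower value. They include ratios of genes with a maximum of only 2 FPKM, and the rank was not taken among genes of like level. By limma 27.5% of these ratios were called, and 48.2% at a maximum of at least 10 FPKM. The value of Cox7a2l stayed between 0.69 and 0.763 when each mouse was left out in turn, and was 0.72 without IL-1052 and IL-2750. For the inclusion isoform as a percent of Cox7a2l and Gm6969 it was 0.70 (adjusted p = 5e-05), for Gm6969 it was 0.70 (adjusted p = 5e-05) and for the sum of both genes it was 0.45 (adjusted p = 0.0104).

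**Figure D5:**
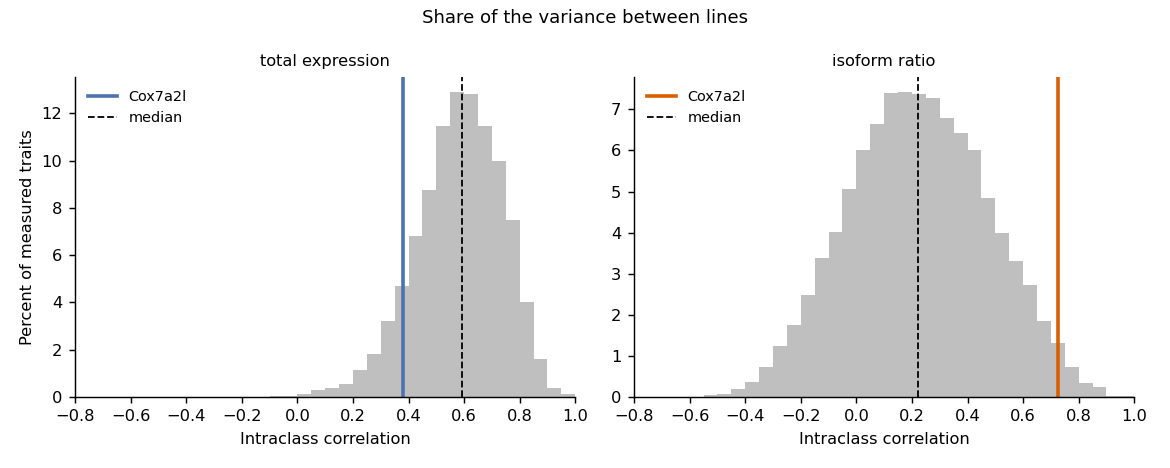
Distribution of the intraclass correlation over 5949 total expression traits (left) and 21415 isoform ratios (right), as percent of traits in bins, with the median (dashed) and Cox7a2l (solid). Cox7a2l lies below the median for total expression, at 0.38, and in the upper tail for the isoform ratio, at 0.73.

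No relation of either measure to body weight, age or depth over the 29 line means passed the threshold of 0.05 after adjustment (two-sided permutation tests, 6 relations). For total expression Pearson's r was -0.11 with body weight (p = 0.589, adjusted p = 0.589), 0.28 with age (p = 0.144, adjusted p = 0.337) and 0.19 with depth (p = 0.324, adjusted p = 0.389). Spearman's rho was -0.13, 0.14 and 0.28 in the same order, with permutation adjusted p of 0.513, 0.513 and 0.331. For the share of the skipping isoform r was 0.21 with body weight (p = 0.274, adjusted p = 0.389), 0.36 with age (p = 0.0536, adjusted p = 0.322) and 0.26 with depth (p = 0.169, adjusted p = 0.337), by permutation. Spearman's rho was 0.23, 0.39 and 0.25, with permutation adjusted p of 0.331, 0.218 and 0.331. Without the 2 lines farthest from the median of each measure, r lay between -0.20 and 0.35 for total expression and between 0.12 and 0.38 for the skipping share. Over mice in place of line means, where line mates are not independent, r of the skipping share was 0.33 with body weight and 0.36 with age (both at a permutation adjusted p of 0.0364). The length of the transcript less its effective length, which grows with the length of the sequenced fragments, was added as a further measure after seeing the data, with r of -0.27 (permutation p = 0.153) and rho of -0.15 (p = 0.421) for total expression, and r of -0.01 (p = 0.963) and rho of 0.05 (p = 0.790) for the skipping share.

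Among the other COX7A genes, Cox7a2, the widely expressed form, had the higher level, with a mean of 151 FPKM over lines (SD 29.8), a lowest mouse of 86.6 FPKM and a highest of 227 FPKM. Its intraclass correlation was 0.66, and its Spearman correlation with Cox7a2l over line means was 0.58. Cox7a1, the form of heart and skeletal muscle, had between 0.23 and 15.8 FPKM with a median of 1.97 FPKM, and an intraclass correlation of 0.32. The highest Cox7a1 values were 15.8 FPKM in replicate 2 of IL-1052 and 15.7 FPKM in replicate 1 of IL-3912. In the first mouse the 3 adipose markers summed to 54.9 FPKM, and in the second the 6 striated muscle markers summed to 1145 FPKM, the highest sums of all mice in both cases. The part of these tissues in the Cox7a1 values was not tested.

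All tested members of each list passed the edgeR test, beside 88.5% of all genes, with 13 of 13 other nuclear-encoded subunits of complex IV, 9 of 9 subunits of complex III, 19 of 19 assembly factors and 4 of 4 mitochondrially encoded subunits. Of the listed genes, 3 subunits of complex IV were under 2 FPKM in all mice, and 4 symbols of assembly factors were not matched. The median intraclass correlation was 0.57 over 10 variable complex IV genes, 0.64 over 9 complex III genes, 0.56 over 14 assembly factors and 0.73 over 4 mitochondrially encoded genes, beside 0.59 over all variable genes.

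Within complex IV the highest intraclass correlation was that of Cox7c, a small subunit, at 0.75, with line means between 239 and 454 FPKM. The lowest was that of Cox6a2, the muscle form of its subunit, at 0.06, with the highest level of 10.7 FPKM in the same mouse of IL-3912 that had the highest muscle markers. With a mean of 0.263 FPKM over lines and 5 rounded levels, Cox6a2 is not among the 10 variable complex IV genes. In complex III the values ran from 0.40 for Uqcrq to 0.75 for Uqcr10, both small subunits. Among assembly factors they ran from 0.36 for Surf1, which takes part in complex IV assembly, to 0.84 for Cox18, which helps to insert a subunit into the inner membrane. Among mitochondrially encoded subunits, mt-Co3 had 0.66 and mt-Co2 had 0.82. All 4 mitochondrially encoded genes were lowest in IL-2146, at line means of 2124 FPKM for mt-Co3, 4142 for mt-Co2, 6189 for mt-Co1 and 1689 for mt-Cytb. This line had the highest sum of Cox7a2l and Gm6969. It also had the highest mean of other listed genes, such as Cox7a2 and Cox5b, while Uqcrb was lowest there.

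Of 9 genes annotated within 500 kb of Cox7a2l, 4 reached 2 FPKM, and all 4 differed among lines by the edgeR test, beside 88.5% of all genes. Haao, an enzyme of tryptophan breakdown, had line means between 161.5 FPKM in IL-1452 and 327.1 FPKM in IL-2126. Pkdcc, a secreted kinase, had its highest mean of 13.1 FPKM in IL-2126 too. This rank of IL-2126 was not particular to the locus. The line also had the highest mean of many listed subunits of complexes III and IV, such as Cox4i1, Cox6b1 and Uqcrh. It was not highest for others, such as Cox7a2 and Cox5b. IL-2126 is a single mouse, with the fewest fragments of all mice (20542671). Eml4, a microtubule-associated protein, and Mta3, a chromatin factor, had their lowest values in IL-2689, at 1.84 and 3.41 FPKM. Their Spearman correlations with Cox7a2l over line means were 0.33 for Haao, 0.41 for Pkdcc, 0.19 for Eml4 and 0.06 for Mta3.

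The genes whose line means ran most like those of Cox7a2l, among 11283 genes, were 6720456B07Rik (Spearman correlation 0.78), Chchd1 (0.76), Clns1a (0.75), Psmb2 (0.75) and Ubl5 (0.74). Chchd1 is a protein of the mitochondrial ribosome, and Psmb2 is a subunit of the proteasome. The most opposite were Gm6900 (-0.59), Srcap (-0.55), Spen (-0.54), Gm10395 (-0.54) and Mup6 (-0.53). The most opposite genes were at low levels, with means over mice between 0.528 FPKM for Gm6900 and 3.04 FPKM for Mup6. Psmb2, Spen and Gm10395 did not pass the edgeR test among lines (adjusted p = 0.0566, 0.143 and 0.07). With the sum of Cox7a2l and Gm6969 in place of Cox7a2l, 0 of these 10 genes were among the 5 most alike or the 5 most opposite. The points share their libraries, and no test was made.

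The tissue was liver by its markers, with 6 of 6 hepatocyte markers detected and a summed level between 14812 and 63737 FPKM. In the mouse of IL-2689 the hepatocyte markers summed to 41475 FPKM and ranked 12 of 29 lines, and the striated muscle markers were at 0. Its Kupffer cell markers, at 20.9 FPKM, were the third lowest. In IL-785 the striated muscle markers had a mean of 36.0 FPKM, at rank 28, against a median of 0.07 FPKM over lines, and the adipose markers, at 0.747 FPKM, had rank 28 too. Its mice had 61.5, 46.6 and 0 FPKM of the muscle markers, and the mouse at 0 had 55.2 FPKM of Cox7a2l and an inclusion share of 9.11%. In IL-2126 the Kupffer cell and blood markers had the lowest line values, 15.7 and 483 FPKM, the stellate cell markers had rank 2 with 19.3 FPKM, and the cholangiocyte markers had rank 28 with 5.24 FPKM. Their part in the values of Cox7a2l was not tested. In whole liver, fewer cells of a type and less RNA per cell cannot be told apart.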

How the data were processed

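Livers of 55 male CC mice were grouped into 29 lines from the sample labels. Reads, paired and 50 bases long, were aligned by the authors with Bowtie 2 (2.1.0) and quantified with RSEM (1.2.18, mm9, per the submitters' processing notes) on Ensembl 67 transcripts. In the deposited tables, expected counts are fragments estimated by RSEM for each gene and isoform, not normalized. The deposited TPM are scaled for effective length to 1 total per mouse. The deposited FPKM are scaled by the authors for effective length and depth. Isoform ratios were deposited as the percent that each isoform takes of its gene. Exons and sequences came from the NCBI build 37 genome with an Ensembl 65 annotation, in which 99.2% of 95337 shared transcripts had the length in the files.

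Expected counts were rounded and tested among the 21 lines with at least 2 mice (47 mice) by edgeR 4.0.16 (TMM, filterByExpr, quasi-likelihood F test), and isoform ratios by limma 3.58.1 on van der Waerden scores, for genes with a maximum FPKM of at least 2 and at least 12 rounded levels, with Benjamini-Hochberg adjustment over all features. On simulated data edgeR recovered 94 of 98 genes changed 2-fold and 100 of 100 changed 4-fold, with 6 false calls among 14413 genes. limma on scores recovered 112 to 152 of 200 simulated line effects in 3 draws of 5000 traits, with 0 false calls, and an F test without moderation recovered 198 with 6 to 7. That test was therefore added after seeing the data. Few features were changed in the simulations, so that these rates need not hold for the data. In the data limma called more ratios than the F test without moderation (27.5% against 20.0%). Intraclass correlations used 100000 permutations.

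Named genes were Cox7a2l, its isoforms and the COX7A genes, the genes with the highest and lowest intraclass correlation of each list, expressed neighbours within 500 kb, and the 5 most alike and 5 most opposite patterns. Gm6969 was named after its values were seen. The members and lists were chosen with earlier results of these data known. Line mates are separate animals. The labels name no batch, and genotypes were not analysed here.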

Additional observations from a re-analysis of the deposited data

How the results depend on the processing

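No paired analysis was possible because mice were numbered within lines in the order of the labels, so that numbers pair no mice across lines. Leaving out replicate 1, 2 or 3 of the lines gave adjusted p between 0.0106 and 0.614 for total expression, 0.0104 and 0.723 for the skipping isoform and 0.0108 and 0.769 for the inclusion isoform (edgeR), and 0.0104 and 0.468 for isoform ratios (limma). The calls were lost without replicate 1 and without replicate 2, settings that left 26 mice in 21 lines, where edgeR called 3646 and 4525 genes and 593 and 1222 isoforms, and limma called 0 ratios in both, with 2041 and 2729 at an unadjusted p under 0.05. Without replicate 3, and under DESeq2, another normalization, other filters, percentages, the arcsine and the F test without moderation (adjusted p = 0.000767, with 4291 ratios called against 5899), the calls of Cox7a2l held, except that the isoforms were at 0.0512 and 0.0737 without a filter on low counts. Leaving out single mice moved the intraclass correlation of total expression between 0.319 and 0.690 and that of either isoform ratio between 0.690 and 0.763. Over mice, r with the skipping share was 0.33 for body weight and 0.36 for age. Of the 5 most alike genes, 1 stayed among the 5 by Pearson correlation, 2 without IL-1052 and IL-2750, and 0 with Gm6969 added, and of the 5 most opposite 1, 0, 1 and 0 stayed at a maximum FPKM of at least 10, by Pearson correlation, without these lines and with Gm6969 added. The inclusion share is limited by 44.6 to 199 fragments per mouse, and single mice stand for 8 lines, IL-2689 and IL-2126 among them.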
